A study of Homo sapiens with 6 samples.

Results

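The genes described here are those of cholesterol synthesis, cholesterol transport and the sterol regulatory element binding protein (SREBP) system in HK-2 cells, an immortalised line of human kidney proximal tubule cells. A list of 28 gene symbols was looked up in the deposited tables. All 28 were found among the 31369 genes of the count table, and 27 among the 30896 genes of the FPKM table, which gives fragment numbers scaled to transcript length and library size. ABCG1 was not in the FPKM table. RNA was sequenced from 3 control samples (NC), whose genotype entry is wild type, and from 3 samples overexpressing *PPM1K* (OE), a mitochondrial phosphatase that activates the breakdown of branched-chain amino acids. The labels give day 10 and chronic kidney disease as the treatment for all 6 samples, and the sample titles name short hairpins, while the genotype entries and the study's methods give overexpression from a plasmid transfected with a lipid reagent. The cell type entry is HK-2 throughout, but the cell line entry carries another HK number for each sample and names HK-2 in NC replicate 1 alone. What the NC cells were transfected with is not given in the sources used here. The study calls its replication biological, but the sources do not say whether the samples of a group came from separate cultures, so the p-values measure only the spread between these samples, which may be in part technical.

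Cells build cholesterol from acetyl-CoA in a long chain of steps. The first steps lead over mevalonate to farnesyl diphosphate, which also feeds other isoprenoids, and the later ones join it to squalene, close the rings to lanosterol and trim lanosterol to cholesterol. The supply is set by SREBPs, transcription factors held in the membrane of the endoplasmic reticulum. When sterols are scarce, SCAP carries an SREBP to the Golgi, where it is cut and freed to act on the genes of synthesis and uptake. When sterols are plentiful, INSIG proteins hold SCAP back. Oxysterols, made when cholesterol is in excess, act through the liver X receptors (LXR), which raise the export pumps ABCA1 and ABCG1 and the ubiquitin ligase MYLIP. Proximal tubule cells take up filtered lipoproteins and are known to store cholesterol when injured.

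Total counts were 34635770 to 36116963 per sample in NC and 36033404 to 39850802 in OE. The *PPM1K* FPKM was between 0.04 and 0.12 in NC and between 6.69 and 7.35 in OE. NC replicate 2 stood apart, with 26478 genes having a count against 22094 to 22913 in the other samples. The numbers of sterol genes, and of all genes around the pathway, that were lower or higher are given with and without it. So are values of INSIG1, INSIG2 and STARD4, which crossed a threshold without it. NC replicate 2 also had the largest shares of intronic, intergenic and antisense reads in the study's own summary. Of 8 epithelial and HK-2 markers, 7 had a mean FPKM of at least 1, KRT8, KRT18, KRT19, EPCAM, CDH2, VIM and PAX8, and their list summed to between 955 and 1062 in NC and between 812 and 880 in OE. Of these 7, KRT8, KRT19, EPCAM and VIM were lower in every OE sample and PAX8 and CDH2 higher, while the groups overlapped for KRT18. None of 8 markers of the differentiated proximal tubule reached 1. Their sum was 0.61 to 0.77 in NC and 0.62 to 0.72 in OE, and LRP2 and SLC22A6 were not in the FPKM table. The 5 fibroblast markers summed to 2.94 to 3.10 in NC and to 1.10 to 1.15 in OE, nearly all from COL1A1 and LUM. Leukocyte markers summed to 0.38 at most, endothelial markers to 0.90 at most and podocyte markers to between 7.71 and 8.98, nearly all from PODXL and SYNPO. The part of these differences in the results was not tested. In such bulk samples, fewer cells of a type and less RNA per cell cannot be told apart.

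Most enzymes of cholesterol synthesis were lower in OE, 12 of 18. Of the 28 genes, 27 passed the filter on low counts, and 16 of these were lower and 3 higher in OE at an adjusted p under 0.05 (edgeR's quasi-likelihood test, Benjamini-Hochberg over 15878 tested genes). Over all tested genes 23.7% were lower and 24.9% higher by the same rule, against 59.3% and 11.1% of the sterol genes. Without NC replicate 2, 14 of the 27 were lower and 3 higher. Among the 18 enzymes of synthesis, 1 was higher, PMVK, and 5 did not pass the test. The median log2 fold change of the 18 was −0.57, where the median of all tested genes was −0.00321. With a fold change below 0.5 required as well, 3 genes were lower, HSD17B7, IDI1 and INSIG1, where 3.79% of all tested genes were lower. None was higher by more than 2-fold, where 1.73% of all tested genes were. In CPM, the counts scaled to library size, the ranges of both groups were apart in 21 of the 27 genes, where the share over all tested genes was 55.3%.

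Summed over the 18 enzymes, FPKM came to 266, 254 and 265 for replicates 1, 2 and 3 of NC, and to 212, 217 and 208 for those of OE. No OE sample reached the level of an NC sample. The sum fell by 18.8%. It includes EBP and FDPS, which rank 1 and 3 by level among all 27 genes and did not pass the test. The 28 genes took 0.113% ± 0.00150 (SD, n = 3) of all counts in NC, while in OE they took 0.0860% ± 0.00140 (SD, n = 3).

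**Figure D1:**
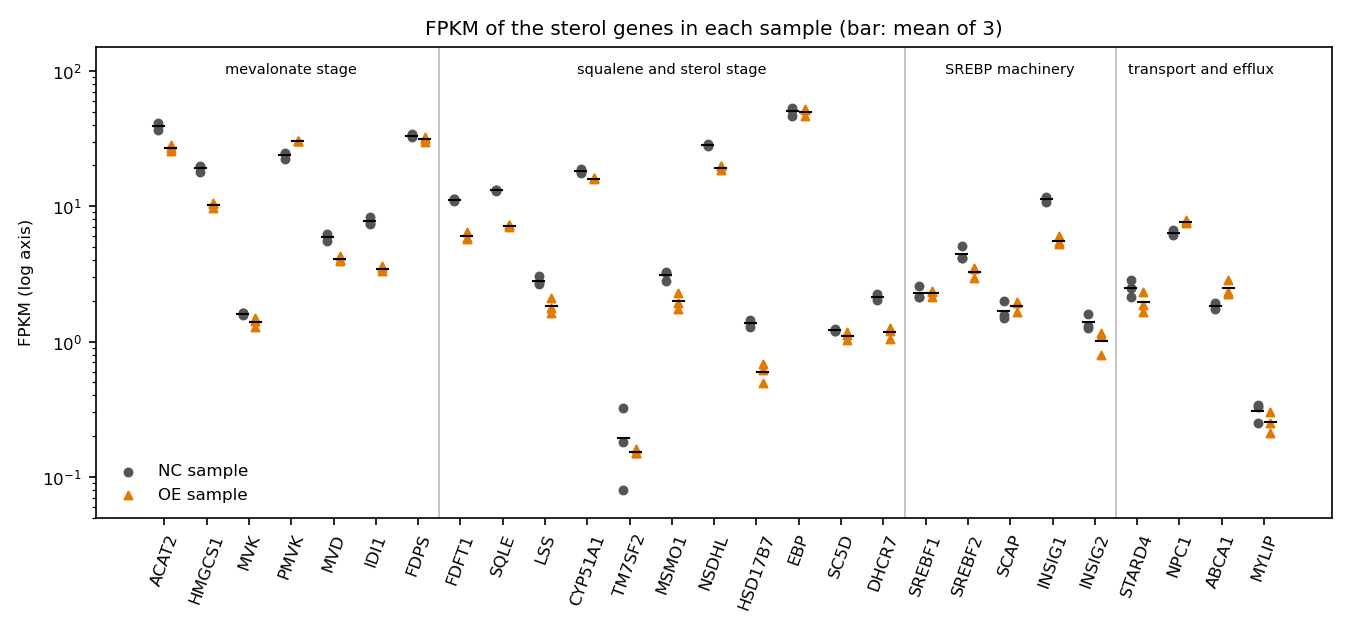
FPKM on a log axis for the 27 genes with an FPKM, in the order of the pathway, with each of the 3 NC samples as a circle, each of the 3 OE samples as a triangle and the group mean as a bar. Levels run from 50.1 for EBP to 0.193 for TM7SF2 in NC, and for most genes of synthesis the triangles lie below the circles without overlap.

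The upstream sequence of some of these genes is shown here because the promoters of SREBP-regulated genes are known to pair a sterol regulatory element, read by SREBP, with a CCAAT box, read by the factor NF-Y. RefSeq promoter windows on GRCh38.p14, from 250 bases before to 50 after the start, matched 24 of the 28 genes. ACAT2, FDFT1, SQLE and ABCG1 had no entry. The pentamer CCAAT was found on either strand in the windows of 17 of the 24 (70.8%), while 43.0% of the 11106 tested genes with a window held it. The motif TCACNCCAC was found in SREBF2 alone, where 1.39% of tested genes with a window held it. The shorter TCACNCCA, which lies within it, was found in SREBF2, MSMO1 and MVK (12.5%, against 4.57%). Only exact matches were sought, so a window without one may still hold a variant of the element. Below are stretches before the start, 5′ to 3′ on the strand of the gene, with CCAAT on either strand and TCACNCCA in capitals. SREBF2, MSMO1 and MVK hold both motifs. MVK, with 5 CCAAT boxes, did not pass the test (adjusted p = 0.055), and it is not printed, since its window lies inside the annotated gene. IDI1, INSIG1 and HSD17B7 were the genes with the lowest log2 fold changes among those with a window.
SREBF2 (chr22:41832957-41833018, plus strand): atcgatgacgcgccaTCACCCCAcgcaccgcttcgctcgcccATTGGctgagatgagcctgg
MSMO1 (chr4:165327469-165327654, plus strand): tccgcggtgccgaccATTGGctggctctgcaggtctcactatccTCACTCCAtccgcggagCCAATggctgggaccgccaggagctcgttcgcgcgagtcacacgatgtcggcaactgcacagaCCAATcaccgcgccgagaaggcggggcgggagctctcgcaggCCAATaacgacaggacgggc
IDI1 (chr10:1049217-1049349, minus strand): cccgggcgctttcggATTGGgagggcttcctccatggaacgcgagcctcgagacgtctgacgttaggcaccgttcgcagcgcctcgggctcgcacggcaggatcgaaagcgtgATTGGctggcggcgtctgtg
INSIG1 (chr7:155297693-155297727, plus strand): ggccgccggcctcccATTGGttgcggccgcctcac
HSD17B7 (chr1:162790635-162790669, plus strand): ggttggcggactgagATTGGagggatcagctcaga

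In SREBF2 the element began 133 bases before the start and the CCAAT box, in reverse, 106 bases before it. In the MSMO1 stretch of 186 bases there were 4 CCAAT boxes. Of the 17 genes with a CCAAT box in the window, 11 were lower, none higher and 6 did not pass the test, and their median log2 fold change was −0.57. Of the 7 without one, 2 were lower (CYP51A1 and INSIG2), 3 higher (PMVK, NPC1 and ABCA1) and 2 did not pass (SREBF1 and SCAP), with a median of 0.11. These counts describe short letter matches in one window per start and were not tested. Most of the 17 were enzymes of synthesis, while of the 7 only PMVK and CYP51A1 were. The box and the role of a gene cannot be told apart in this split. The split was not made over all tested genes, of which 23.7% were lower and 24.9% higher. It leaves out ACAT2, FDFT1 and SQLE, which were lower and had no window.

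In the mevalonate stage, 4 of 7 enzymes fell, 1 rose and 2 did not pass the test. IDI1, the isomerase that interconverts the building blocks of farnesyl diphosphate, fell most. In replicates 1, 2 and 3 of NC its FPKM was 7.42, 8.28 and 7.46, and in those of OE it was 3.49, 3.30 and 3.59. Each OE sample lay below 50% of the lowest NC sample. The log2 fold change was −1.18 (standard error, SE, 0.077, adjusted p = 7.5e-11 from edgeR), and 2.58% of all tested genes lay lower. IDI1 (ENSG00000067064.12) spans bases 1039152 to 1049119 of chromosome 10 (GRCh38, minus strand, GENCODE release 44) and shares exonic bases with IDI2-AS1 on the other strand.

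HMGCS1, the cytosolic HMG-CoA synthase, had an FPKM of 17.86, 19.87 and 19.32 in NC and 9.63, 10.36 and 10.48 in OE, in the same order of replicates. The groups were far apart beside their own spread, with a log2 fold change of −0.93 (SE 0.055, adjusted p = 2.0e-11). ACAT2, the thiolase that joins acetyl-CoA units before it, fell from 41.25, 36.36 and 38.86 to 25.37, 28.21 and 26.69, a log2 fold change of −0.56 (adjusted p = 3.9e-08). MVD, which decarboxylates mevalonate diphosphate, fell from 6.25, 5.57 and 6.04 to 3.95, 4.26 and 3.97, a log2 fold change of −0.57 (adjusted p = 1.5e-06). In both genes the lowest NC sample stood above the highest OE sample. ACAT2 shares exonic bases with TCP1 and SOD2 on the other strand.

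Of the other 3 enzymes of this stage, 1 rose and 2 did not pass the test. PMVK, phosphomevalonate kinase, rose from an FPKM of 23.8 ± 1.27 (SD, n = 3) to 30.2 ± 0.12 (SD, n = 3), a log2 fold change of 0.32 (SE 0.068, adjusted p = 0.00048). MVK, mevalonate kinase, stood at 1.60 in NC and 1.39 in OE (log2 fold change −0.22, adjusted p = 0.055, and 0.027 with upper quartile scaling). FDPS, farnesyl diphosphate synthase, stood at 33.3 and 31.2 (log2 fold change −0.11, adjusted p = 0.080, and 0.023 with that scaling). So PMVK was higher while the enzyme that acts after it, MVD, was lower.

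In the squalene and sterol stage, 8 of 11 enzymes fell, none rose and 3 did not pass the test. The first 3 steps all fell. FDFT1, squalene synthase, had an FPKM of 10.90, 11.25 and 11.22 in NC and 5.72, 6.45 and 5.80 in OE. Its log2 fold change was −0.91 (SE 0.061, adjusted p = 1.1e-10). SQLE, squalene epoxidase, a point of control of the late pathway, had 13.16, 13.24 and 12.88 in NC and 7.20, 7.30 and 7.04 in OE. Replicates of each group lay close together, and the log2 fold change was −0.89 (SE 0.057, adjusted p = 6.3e-11). LSS, which closes the sterol rings, had 3.03, 2.68 and 2.74 in NC and 1.63, 2.11 and 1.78 in OE, a log2 fold change of −0.63 (adjusted p = 6.0e-06). OE replicate 2 was the highest of its group here but still below each NC sample.

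Of the enzymes that act after lanosterol, 5 of 8 fell. HSD17B7, a ketosteroid reductase, had the largest fall of the 27 tested genes, from an FPKM of 1.44, 1.28 and 1.37 in NC to 0.68, 0.62 and 0.49 in OE, on 238 to 257 counts in NC and 90 to 130 in OE. Its log2 fold change was −1.21 (SE 0.14, adjusted p = 3.0e-07), and 2.32% of all tested genes lay lower. HSD17B7 (ENSG00000132196.16) is on the plus strand of chromosome 1, from 162790702 to 162812823, and shares no exonic bases with another gene. Its close copy on chromosome 10, the pseudogene HSD17B7P2, had 41, 47 and 42 counts in NC and 18, 18 and 11 in OE, and the counting could have split reads between the pair, so both are uncertain.

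DHCR7, which makes the last reduction to cholesterol, had 2.12, 2.25 and 2.04 in NC and 1.19, 1.05 and 1.26 in OE (log2 fold change −0.90, adjusted p = 8.1e-08). MSMO1 and NSDHL work in sequence to remove methyl groups from the ring. MSMO1 had 3.23, 2.81 and 3.25 in NC and 1.73, 1.93 and 2.27 in OE (log2 fold change −0.67, adjusted p = 4.6e-05). NSDHL had 28.36, 27.69 and 28.69 in NC and 19.67, 18.41 and 19.73 in OE (log2 fold change −0.57, adjusted p = 3.7e-08). In all 3 genes every OE sample was below every NC sample.

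CYP51A1, the demethylase that acts on lanosterol, fell less, from 18.2 ± 0.686 (SD, n = 3) to 15.98 ± 0.127 (SD, n = 3), a log2 fold change of −0.21 (adjusted p = 0.0034). It shares most of its exonic length with other gene models on the same strand, so its counts are uncertain. The 3 enzymes that did not pass were EBP, SC5D and TM7SF2. EBP, a sterol isomerase and the most expressed of the genes, stood at 50.1 ± 3.27 (SD, n = 3) in NC, and OE had 49.9 ± 3.21 (SD, n = 3), and it too shares exonic bases with a gene model on its strand. SC5D, a desaturase, stood at 1.21 and 1.10. TM7SF2, a sterol reductase, had 11 to 42 counts in NC and 20 to 21 in OE, too few and too spread for a difference to be detectable at this depth.

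**Figure D2:**
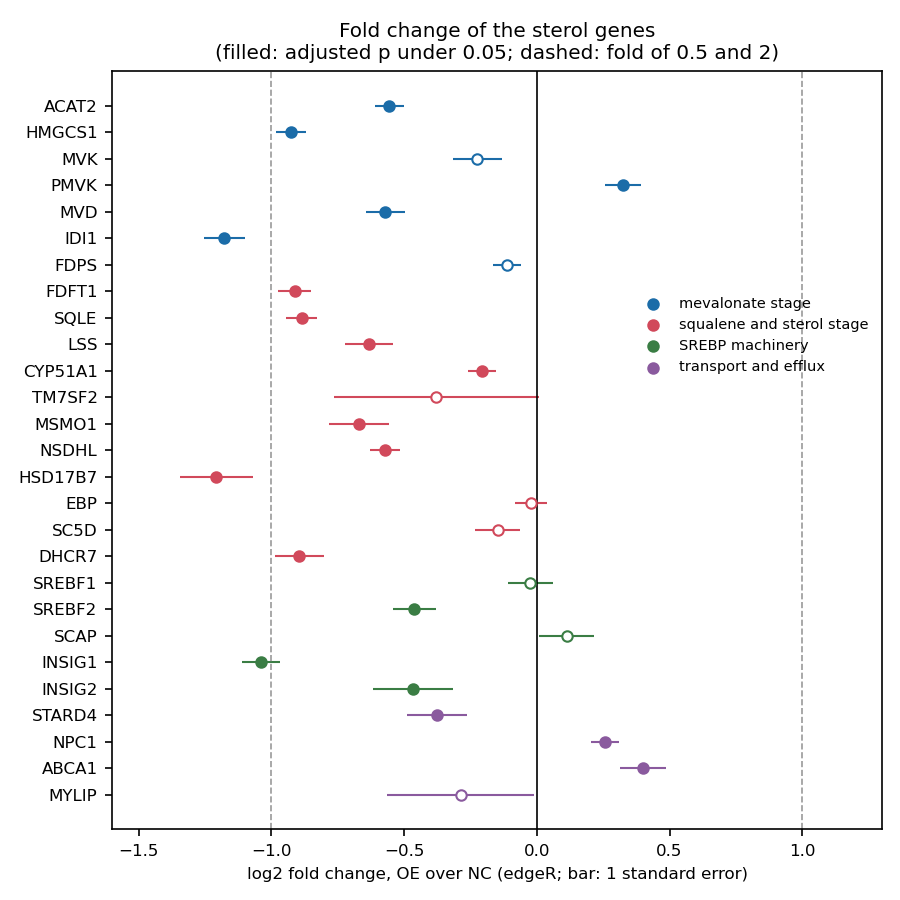
Log2 fold change of OE over NC from edgeR for the 27 tested genes, in pathway order and coloured by role, with bars of 1 standard error, filled points at an adjusted p under 0.05 and dashed lines at a fold of 0.5 and 2. HSD17B7, IDI1 and INSIG1 lie left of the lower line, and only PMVK, NPC1 and ABCA1 are filled on the right of 0.

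Of the 5 genes of the SREBP machinery, 3 fell and 2 did not pass the test. SREBF2, which encodes the SREBP most tied to cholesterol genes, had an FPKM of 5.08, 4.17 and 4.14 in NC and 2.94, 3.42 and 3.50 in OE. NC replicate 1 was the highest, and the groups did not overlap. The log2 fold change was −0.46 (SE 0.081, adjusted p = 7.5e-05). SREBF2 (ENSG00000198911.12) is on the plus strand of chromosome 22, from 41833105 to 41907306, and shares exonic bases with SREBF2-AS1 on the other strand.

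SREBF1, whose products are more tied to fatty acid genes, had 2.59, 2.12 and 2.13 in NC and 2.35, 2.13 and 2.34 in OE. The groups overlapped, and the log2 fold change was −0.02 (SE 0.084, adjusted p = 0.83). The gene counts do not separate its isoforms. The FPKM of SREBF2 was 1.96 ± 0.0122 (SD, n = 3) times that of SREBF1 in NC, but 1.45 ± 0.182 (SD, n = 3) times in OE, and no OE sample reached the lowest NC ratio. SCAP, the escort of both, had 1.99, 1.49 and 1.56 in NC and 1.64, 1.92 and 1.95 in OE. Its groups overlapped too (log2 fold change 0.11, adjusted p = 0.39).

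INSIG1, the anchor of SCAP and itself an SREBP target, had an FPKM of 10.68, 11.76 and 11.30 in NC and 5.23, 5.41 and 6.04 in OE. All OE samples were far below the NC samples, with a log2 fold change of −1.04 (SE 0.071, adjusted p = 1.8e-10). Without NC replicate 2 it was −0.99, just short of the fold threshold. INSIG1 (ENSG00000186480.13) is on the plus strand of chromosome 7, from 155297776 to 155310235, and shares no exonic bases with another gene. INSIG2, the second anchor, which is less dependent on SREBP, had 1.31, 1.60 and 1.25 in NC and 1.16, 1.09 and 0.79 in OE, on at most 245 counts. Its log2 fold change was −0.47 (SE 0.15, adjusted p = 0.014). NC replicate 2 was the highest and OE replicate 3 the lowest sample. The adjusted p was 0.096 without NC replicate 2 and 0.074 without OE replicate 3.

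Among the genes of transport and efflux the directions were mixed, with 2 of the 4 tested genes higher, 1 lower and 1 that did not pass. ABCA1, which loads cellular cholesterol onto apolipoproteins, rose from an FPKM of 1.84 ± 0.106 (SD, n = 3) to 2.47 ± 0.340 (SD, n = 3), a log2 fold change of 0.40 (SE 0.086, adjusted p = 0.00058). NPC1, which lets cholesterol out of late endosomes and lysosomes, rose from 6.35 ± 0.271 (SD, n = 3) to 7.69 ± 0.180 (SD, n = 3), a log2 fold change of 0.26 (adjusted p = 0.00037). NPC1 shares exonic bases with RMC1 on the other strand. STARD4, a carrier of cholesterol through the cytosol and an SREBP target, stood at 2.49 ± 0.375 (SD, n = 3) in NC, and OE had 1.95 ± 0.337 (SD, n = 3). Its log2 fold change was −0.38 (adjusted p = 0.0097), but the groups overlapped, and the adjusted p was 0.093 without NC replicate 2 and 0.072 without OE replicate 1. MYLIP, the ligase that marks lipoprotein receptors for breakdown, had 25 to 41 counts in all samples and did not pass (log2 fold change −0.29, adjusted p = 0.41). ABCG1 had 1 count in NC replicate 1, 1 in NC replicate 2 and 1 in OE replicate 3, and was not tested. Of ABCA1, ABCG1 and MYLIP, the LXR targets named at the start, ABCA1 passed the test, while MYLIP had few counts and ABCG1 was not tested.

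In FPKM, which allows levels to be compared between genes, the order in NC ran from EBP over ACAT2, FDPS, NSDHL and PMVK down to SC5D, MYLIP and TM7SF2. HMGCS1 and CYP51A1 overlapped in NC, at 19.0 and 18.2, as did INSIG1 and FDFT1, at 11.2 and 11.1. NPC1 and MVD, at 6.35 and 5.95, overlapped there too, and so did MYLIP and TM7SF2. From MSMO1 (3.10) down to DHCR7 (2.14), and from ABCA1 (1.84) down to HSD17B7 (1.36), each gene overlapped the next. In OE, PMVK rose from the fifth to the third place and NPC1 from rank 12 to rank 8, while IDI1 moved from rank 11 to rank 13. Between replicates the genes varied little. For the 25 genes with an NC FPKM of at least 1, the coefficient of variation of CPM had a median of 5.30% in NC and 6.35% in OE, and it was 20.5% at most.

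**Figure D3:**
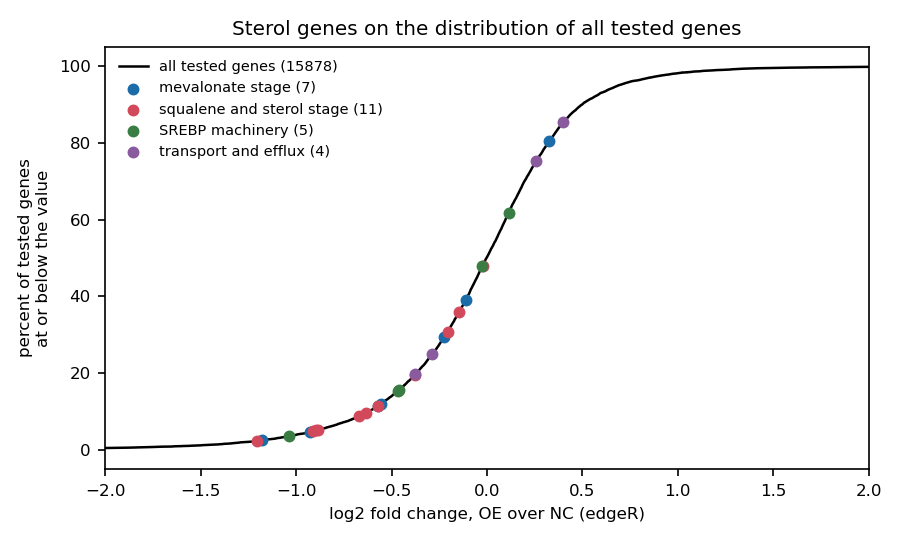
Cumulative distribution of the log2 fold change of all 15878 tested genes (line), with the 27 tested sterol genes placed on it and coloured by role. The median of the 18 synthesis enzymes lies at the 11.5 percent point, and the 4 genes above 0 are PMVK, NPC1, ABCA1 and SCAP, of which SCAP did not pass the test.

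Seen against all tested genes, 9 of the 27 lay among the lowest 10% of log2 fold changes and 5 among the lowest 5%, whose bounds were −0.62 and −0.90. The median of the squalene and sterol stage was −0.63, that of the mevalonate stage −0.56, that of the SREBP machinery −0.46 and that of transport and efflux −0.02. All 11 enzymes of the squalene and sterol stage had a log2 fold change below 0, from −1.21 to −0.02, but TM7SF2, EBP and SC5D did not pass the test, and with 1 sample left out TM7SF2 reached 0.18 and EBP 0.04. With a sample left out in turn, 14 of the 16 genes called lower, all but INSIG2 and STARD4, and all 3 called higher kept their call in each of 6 fits.

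A further 98 genes around the pathway were followed in 7 lists, of which 90 were tested. Of these, 26 were lower and 26 higher (28.9% each), near the shares over all tested genes, and their median was −0.07. Without NC replicate 2, 24 were lower and 19 higher. In the fatty acid arm of the SREBP targets, 8 of 17 genes were lower and 3 higher (47.1% and 17.6%), with a median of −0.15. The shares over all tested genes were 23.7% and 24.9%. FASN, fatty acid synthase, fell from an FPKM of 7.02 ± 0.278 (SD, n = 3) to 3.70 ± 0.121 (SD, n = 3), a log2 fold change of −0.94 (adjusted p = 2.2e-11). ACLY, which makes cytosolic acetyl-CoA for both fatty acids and sterols, fell by 0.54 on the log2 scale (adjusted p = 1.2e-08). MID1IP1, which activates acetyl-CoA carboxylase, rose instead, from 2.63 to 5.50, a log2 fold change of 1.04 (adjusted p = 6.6e-10). SREBF1 itself, as given above, did not pass the test.

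At farnesyl diphosphate other branches leave the pathway. Of 15 tested genes of prenylation, dolichol and ubiquinone synthesis, 7 were higher and 2 lower (46.7% and 13.3%), with a median of 0.04. The shares over all tested genes were 24.9% and 23.7%. PDSS2, a subunit of the enzyme that makes the side chain of ubiquinone, rose from 1.10 to 2.07 (log2 fold change 0.89, adjusted p = 2.5e-06), and RABGGTB and ZMPSTE24, which act in protein prenylation, rose by less, with 0.42 and 0.45. Among 11 genes that process SREBP or mark sterol enzymes and regulators for breakdown, 5 were higher (45.5%) and none lower, with a median of 0.07. ERLIN1 showed a log2 fold change of 0.29, RNF139 of 0.41 and MBTPS2, the protease that makes the second cut of SREBP, of 0.47 (adjusted p = 0.00012, 0.00037 and 0.00088). Of 10 tested partners of the sterol enzymes, 5 were lower and 4 higher. FAXDC2, a relative of the sterol oxidases, changed by −1.09 on the log2 scale (adjusted p = 2.9e-06), from 1.02 to 0.48, while CYB5B, an electron donor, had 0.40 (adjusted p = 1.4e-06).

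**Figure D4:**
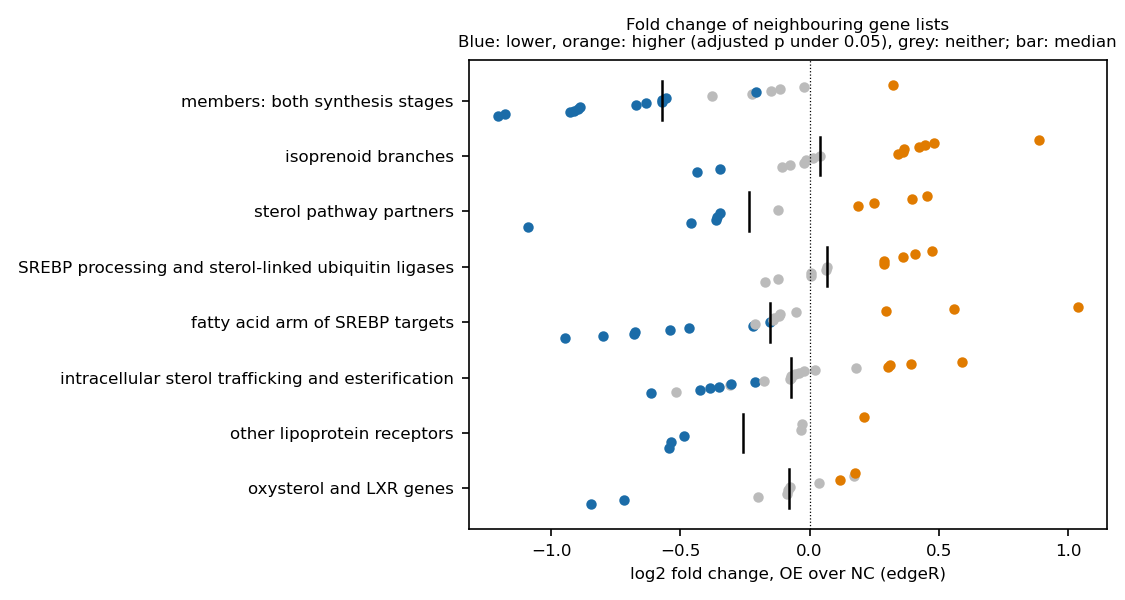
Log2 fold change of OE over NC for the 18 synthesis enzymes (top row) and for the 90 tested genes of the 7 lists around the pathway, 1 point a gene, blue where lower and orange where higher at an adjusted p under 0.05, with a bar at each median. The median is −0.57 in the top row and between −0.26 and 0.07 in the others.

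On the side of uptake and storage, 3 of 6 tested lipoprotein receptor genes were lower and 1 higher. Over all tested genes the share lower was 23.7% and the share higher 24.9%. VLDLR was at −0.49, LRP1 at −0.54 and LRP8 at −0.54 on the log2 scale (adjusted p = 2.7e-07, 3.8e-07 and 5.2e-07). Of 21 tested genes of intracellular trafficking and esterification, 6 were lower and 4 higher (28.6% and 19.0%), near the shares over all tested genes. TSPO, an outer mitochondrial membrane protein that binds cholesterol, had −0.61 (adjusted p = 7.7e-07) and CAV1, the coat protein of caveolae, −0.39, while OSBPL8, a lipid exchange protein, had 0.59 (adjusted p = 1.5e-06). Of 10 tested oxysterol and LXR genes, 2 were lower and 2 higher (20.0% each), also near those shares. CYP27A1, which makes an oxysterol in mitochondria, fell from 5.42 ± 0.626 (SD, n = 3) to 3.06 ± 0.0115 (SD, n = 3), a log2 fold change of −0.84 (adjusted p = 1.3e-07). SMPDL3A had −0.72 (adjusted p = 0.011) and NR1H2, which encodes an LXR, 0.18 (adjusted p = 0.020). With a sample left out in turn, NR1H2 kept its call in 3 of 6 fits and SMPDL3A, on 42 to 100 counts, in 5. Fitted in edgeR with a replicate block, NR1H2 had an adjusted p of 0.052.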

How the data were processed

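RNA of 6 HK-2 samples, 3 NC and 3 OE, was sequenced as stranded mRNA libraries read from both ends. The authors trimmed the reads with FASTX-Toolkit, ran HISAT2 against GRCh38 and kept reads with a single placement for counting. The deposited counts are whole numbers per gene, not normalized. The deposited FPKM values were made by the authors and hold 2 decimals. The submitters' processing notes also name mm10. Annotation release, counting program and use of strand are not given in the sources used here, so genes with shared exonic bases are uncertain (14 of the 28). Column names were matched to samples by group and replicate number.

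The counts of the whole table were fitted with edgeR 4.0.16 in R 4.3.3 (filterByExpr, TMM, quasi-likelihood F-test), with Benjamini-Hochberg adjustment over 15878 genes. Calls needed an adjusted p under 0.05, and the stricter rule also a fold over 2 or under 0.5. Standard errors were derived from each gene's F statistic. FPKM served for levels. The scripts were tested on simulated data. Alternatives were DESeq2 1.42.0, limma 3.58.1 on log2(FPKM + 1) and log2(FPKM + 0.1), other scalings and filters, a replicate block and each sample left out. The 28 genes, the lists and the rule for named genes (all 28, with values in every sample for those past a log2 change of 0.5 and for the SREBP machinery, and the 3 smallest adjusted p of each further list) were chosen with earlier results of these data known. One gene that this rule names is not reported here. Coordinates are from GENCODE release 44 on GRCh38, in which 99.8% of the identifiers were found, and promoter sequences from RefSeq on GRCh38.p14.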

Additional observations from a re-analysis of the deposited data

How the results depend on the processing

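Of the tests of single genes under the 14 alternatives, 363 kept their direction and their side of the threshold, 6 changed direction in genes that passed in neither fit, 6 lost a call (INSIG2 and STARD4) and 3 gained one (MVK, and FDPS with upper quartile scaling). The changes of direction were in SREBF1, with a log2 fold change of 0.0005 by limma on log2(FPKM + 0.1) and from −0.0684 to 0.0706 with a sample left out, in EBP, from −0.0634 to 0.0354, and in TM7SF2, from −0.73 to 0.18. The number of genes lower was 15 by limma on either FPKM scale, 16 by DESeq2, 18 with upper quartile scaling and between 14 and 16 with a sample left out, the lowest without NC replicate 2. The number higher was 3 in each. Past the fold threshold, 3 genes were lower by edgeR and 0 by limma on log2(FPKM + 1), a scale that compresses low values, and 2 or 3 with a sample left out. With no filter on low counts, the median of all 31369 genes was −0.13, while that of the 18 enzymes stayed at −0.57. The former includes genes with few counts, and NC replicate 2 had a count in the most genes.

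Deviations from the group mean were not shared between samples of one number, so the numbers were not taken as pairs (correlations of −0.00319, −0.0663 and −0.0542 over 15878 genes). Fitted with a replicate block, 16 genes were lower and 3 higher. Over all tested genes, 3458 were then lower and 3607 higher, against 3766 and 3949. Depth limits TM7SF2, MYLIP and ABCG1, with at most 42 counts in a sample.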
